A study of Mus musculus with 20 samples.

Results

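Genes that fat cells express strongly were followed through 20 mouse kidneys, to see how much adipose tissue each kidney sample carried and whether it differed between the groups. The 10 genes were Adipoq, Cfd, Retn, Cidec, Fabp4, Lpl, Car3, Lep, Ucp1 and Pparg, and every probe set that the platform annotation names for one of them was taken. This gave 14 of the 22626 probe sets tested, for 9 of the 10 genes. No probe set carries the name Cfd in the annotation used here, so no value could be assigned to it. Kidneys came from Balb/c mice of both sexes at about 10 weeks of age. There were 4 groups of 5: males and females labelled healthy (called controls here), and males and females given doxorubicin, a drug toxic to the podocytes of Balb/c kidneys. The doxorubicin groups were taken 14 days after an intravenous dose of 12 mg/kg. Whole kidney RNA was hybridized to 1 Affymetrix array per animal. Animals are named by sex and animal number (M30-1, FNo5).

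An adipocyte stores triglyceride in lipid droplets. Pparg, a nuclear receptor, drives its formation; Lpl and Fabp4 bring fatty acids into it; Cidec coats and enlarges the droplet; and Adipoq, Retn and Lep encode hormones that it secretes. Brown adipocytes also make Ucp1, which lets mitochondria release energy as heat. The kidney lies in a pad of fat which in mice holds both white and brown adipocytes. Some of these genes are not particular to fat: capillary endothelium makes Fabp4, Lpl is made in the mouse kidney itself, and Car3, a carbonic anhydrase, is also abundant in skeletal muscle and liver.

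Promoters of RefSeq genes (build GRCm38.p6, 250 bases before to 50 after a transcription start) were at hand for 6 of the 9 measured genes. Those of Adipoq, Cidec and Ucp1 are shown, since Adipoq and Cidec went together over the kidneys and Ucp1 followed Adipoq in only some of them. They lie at chr16:23146286-23146585 (plus strand), chr6:113434715-113435014 (minus strand, 1 of 2 Cidec starts in the table) and chr8:83290098-83290397 (plus strand). Capitals mark matches, on either strand, to TATAAA, to AGGTCA (a site of nuclear receptors, called the AGGTCA site below), to a PPAR element (that site 2 times with 1 base between) or to TTGCNNAA (a C/EBP motif).
Adipoq: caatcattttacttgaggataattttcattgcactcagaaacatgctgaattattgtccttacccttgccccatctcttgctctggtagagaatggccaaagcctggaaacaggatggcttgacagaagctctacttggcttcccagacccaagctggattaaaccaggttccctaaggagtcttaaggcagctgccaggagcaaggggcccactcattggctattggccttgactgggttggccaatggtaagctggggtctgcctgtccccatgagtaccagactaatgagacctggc
Cidec: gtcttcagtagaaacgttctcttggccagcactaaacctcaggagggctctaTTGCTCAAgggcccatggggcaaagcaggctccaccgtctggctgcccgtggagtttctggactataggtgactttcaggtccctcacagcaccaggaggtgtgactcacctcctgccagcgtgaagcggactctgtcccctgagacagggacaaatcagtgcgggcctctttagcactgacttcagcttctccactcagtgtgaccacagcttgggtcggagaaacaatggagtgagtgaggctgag
Ucp1: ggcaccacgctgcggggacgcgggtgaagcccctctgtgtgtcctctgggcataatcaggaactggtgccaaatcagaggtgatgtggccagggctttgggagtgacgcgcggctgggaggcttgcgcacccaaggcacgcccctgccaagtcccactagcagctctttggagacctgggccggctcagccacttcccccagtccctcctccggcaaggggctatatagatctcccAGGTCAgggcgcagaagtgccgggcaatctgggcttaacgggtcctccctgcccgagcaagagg
The Adipoq window held none of these letters, the Cidec window shown a C/EBP motif at position -198 from the start (the window of the other Cidec start held 0 matches), and the Ucp1 window an AGGTCA site at -14. Of all 32851 promoters in the table, 13.6% held TATAAA, 16.3% the AGGTCA site, 0.0396% the PPAR element and 10.8% the C/EBP motif.

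The deposited values are GCRMA intensities, which are corrected for background and normalized between arrays. They were taken to log2, and every level below is a log2 intensity. The median intensity of an array was 62.1 to 69.3 before the log. The background of the arrays, taken as the 95% quantile of 12 Y-linked probe sets in the females, was 2.75. Each probe set has a floor of its own, and a kidney is called above the floor when it lies more than 0.2 over the lowest of the 20 values. 2 arrays stood apart from their groups in a principal component analysis of all probe sets. The first component (43.6% of the variance) put FNo5 at -35.0 and the remaining control females at 23.4 or above. It put the doxorubicin females at 33.7 to 66.2 and the males at -66.0 to -5.9, so FNo5 lay in the range of the males. The third put M30-4 and FNo5 at 63.9 and 55.7 and all others at 6.0 or below. On the second component (15.6% of the variance) the 5 males with prefix 30 in their animal number lay at 34.1 to 59.5 and the 5 males without a prefix at -20.6 to -11.9, in both male groups; the labels do not give the meaning of the prefix. FNo5, whose number is written No5, was counted among the animals without a prefix. Where leaving out FNo5 and M30-4, or taking the prefix as a block, turned the sign of a group difference given below, that value stands beside it.

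Adipoq, which encodes the hormone adiponectin and is made by adipocytes, separated the kidneys into 2 sets. In control males it was 9.27, 8.65, 6.10, 1.81 and 8.11 in M30-1, M13, M30-2, M30-5 and M12. In control females it was 5.51, 9.54, 1.84, 7.21 and 10.10 in F1, F10-1, F10-2, F30-6 and FNo5. Thus 4 of 5 control kidneys of each sex had Adipoq signal, and 1 of each lay at the floor. In doxorubicin males it was 1.84, 1.90, 1.83, 6.02 and 1.85 in M30-3, M30-4, M7, M9 and M11. In doxorubicin females it was 1.85, 5.99, 1.85, 10.40 and 1.84 in F3, F4, F5, F10-3 and F10-4. Only M9 among the doxorubicin males and F4 and F10-3 among the doxorubicin females were above the floor, but F10-3 had the highest level of all 20 kidneys. In all, 11 kidneys lay at 5.51 to 10.40 and 9 at 1.81 to 1.90, with none between. The 11 were 8 control and 3 doxorubicin kidneys, 5 male and 6 female. In whole kidney RNA, more fat cells and more RNA per fat cell cannot be told apart. The prefix of the animal number did not separate the sets: 3 of 6 animals with prefix 30, 2 of 4 with prefix 10 and 6 of 10 without a prefix were above the floor.

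Car3 followed Adipoq over the widest range of any member. Its brightest probe set (1449434_at) ran from 2.63 in M30-5 to 13.63 in F10-3. It was 8.32 to 13.63 in the 11 kidneys with Adipoq above its floor and 2.63 to 6.87 in the other 9, so the sets did not overlap. Unlike Adipoq, it was not flat in those 9 kidneys. It was 6.87 in F10-4, 6.06 in M30-3, 6.05 in F10-2, 5.05 in M30-4 and 5.02 in M11, against 3.77, 3.56, 3.48 and 2.63 in M7, F3, F5 and M30-5. The second probe set (1460256_at) stayed within 0.2 of its lowest value, 3.30, in 11 kidneys and reached 10.17 in FNo5 and 8.97 in F10-3. Of 10 skeletal muscle genes, 8 were at or under the array background in all kidneys; Myl1 was at most 3.27, and Pvalb, also known from the distal tubule, was 10.60 to 12.05.

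Cidec and Retn were seen only where Adipoq was high. Cidec was 5.64 in FNo5, 5.01 in M30-1, 4.58 in F10-1, 4.33 in F10-3, 3.62 in M13 and 3.19 in F30-6, and 2.37 to 2.51 in the other 14 kidneys. These 6 kidneys are 6 of the 7 with the highest Adipoq; M12, with Adipoq at 8.11, was the exception at 2.51. Retn, the hormone resistin, was 5.30 in F10-3, 3.61 in F10-1, 2.83 in M30-1 and 2.01 in FNo5, the last under the array background. The other 16 kidneys lay at 1.72 to 1.79. Lep, the hormone leptin, was not above background in any kidney (2.32 to 2.36), the highest Adipoq kidneys included.

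**Figure D1:**
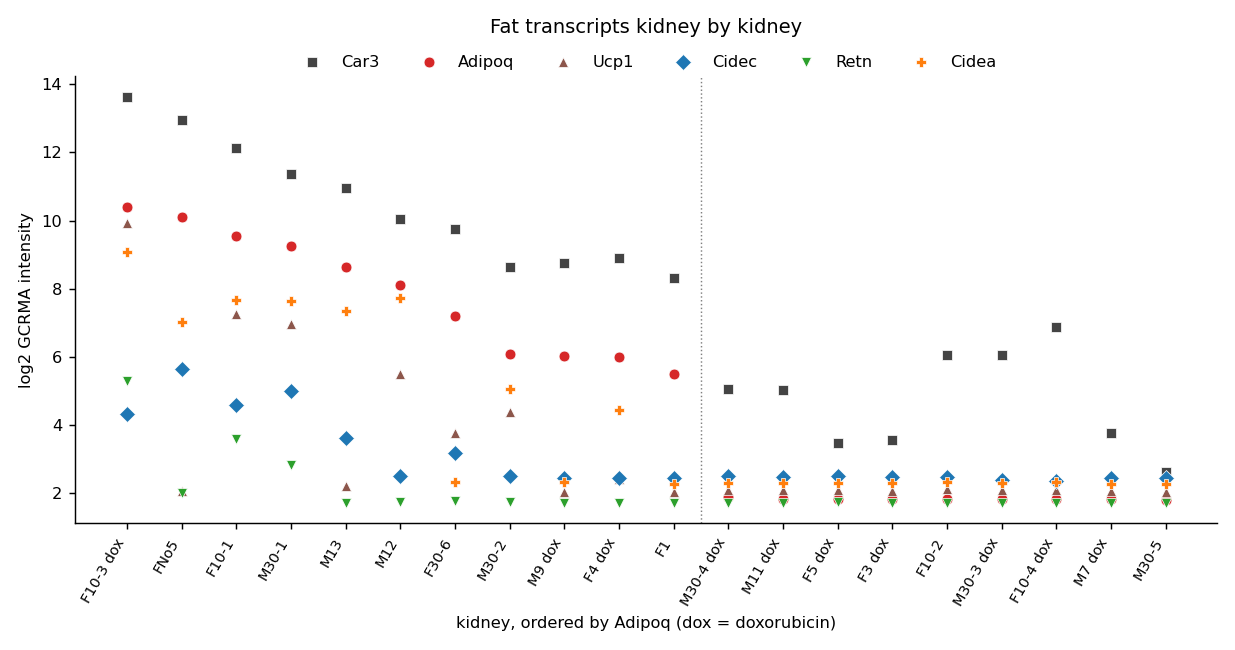
Log2 GCRMA intensity (vertical axis) of 5 members and of Cidea in each of the 20 kidneys, ordered from left to right by Adipoq, with doxorubicin kidneys marked dox and a dotted line between the 11 kidneys above and the 9 at the Adipoq floor. Car3 goes from 13.63 in F10-3 to 8.32 in F1 left of the line, while Ucp1 is at its floor in FNo5, whose Adipoq level is 10.10.

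Ucp1, the uncoupling protein of brown fat, was above background in 6 kidneys, all with Adipoq above its floor, and under it in the other 5 kidneys of that set. It was 9.93 in F10-3, 7.26 in F10-1, 6.96 in M30-1, 5.50 in M12, 4.38 in M30-2 and 3.77 in F30-6. In the other 5 kidneys with Adipoq it was 2.06 in FNo5, 2.23 in M13, 2.43 in F4, 2.03 in F1 and 2.03 in M9. FNo5 and M13 had the second and the fifth highest Adipoq levels of the 20 kidneys, at 10.10 and 8.65. All 9 kidneys with Adipoq at its floor had Ucp1 at 2.04 to 2.12. Cidea, a lipid droplet protein abundant in brown fat, was at 9.09 in F10-3, 7.73 in M12, 7.67 in F10-1 and 7.65 in M30-1. It was also at 7.34 in M13 and 7.02 in FNo5, where Ucp1 was low, and at 2.35 in F30-6, where Ucp1 was 3.77. Of the 8 brown adipocyte genes measured, Dio2, Elovl3 and Zic1 were at or under background in all kidneys. Cox7a1, Cox8b, Ppargc1a and Fabp3 were above background in all 20. On deviations from the group means their r with Adipoq was 0.02, 0.54, -0.19 and -0.53, against 0.88 for Cidea.

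The brighter probe sets of Fabp4, Lpl and Pparg were above background in kidneys with and without Adipoq. Fabp4 has 4 probe sets. The 2 brightest were at 11.44 to 13.97 (1417023_a_at) and 11.01 to 13.79 (1451263_a_at), highest in F10-3 and lowest in M30-4 both times. 1417023_a_at had a median of 12.71 in the 11 kidneys with Adipoq and 12.32 in the other 9, and the sets overlapped only slightly, with 12.46 as the lowest of the first and 12.51 as the highest of the second. 1424155_at was dimmer, at 3.87 in M30-4 to 8.55 in F10-3. The fourth, 1425809_at, went its own way: it was 3.79 in M9, 3.35 in M11, 3.17 in M13 and 2.76 in M7, males without a number prefix, and 1.94 to 1.99 in the other 16 kidneys. Lpl was at 13.16 to 14.65 (1415904_at) and 11.39 to 13.06 (1431056_a_at), and its level overlapped widely between kidneys with and without Adipoq. Pparg was 4.78 to 6.60. The highest levels were 6.60 in M30-1, 6.19 in F10-3, 6.14 in FNo5 and 6.00 in F10-1, kidneys which also have the highest Adipoq, while F30-6 had the lowest Pparg with Adipoq at 7.21. Of 9 endothelial genes, all were above background in every kidney. Their median difference, female minus male, was 0.89 in control and 0.16 in doxorubicin kidneys. A call here is an adjusted p under 0.003, passed by 2.42% of all probe sets in control and 1.61% in doxorubicin kidneys. In control kidneys Kdr, Tek and Flt1, receptors of vascular growth factors, were called higher in females (0.95, 0.98 and 1.13, limma adjusted p = 0.0029, 0.000157 and 0.000789). In doxorubicin kidneys 0 of 9 were called. The part of endothelium in the Fabp4 level was not tested.

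The spread between animals of a group was among the widest on the array. Car3 1449434_at had the largest within-group SD of all 22626 probe sets (3.24), Adipoq the second largest (3.10) and Ucp1 ranked 20 (2.32), against a median of 0.21 over all probe sets. 4 of the 14 member probe sets, and 2.40% of all, had a within-group SD over 1. Thrsp (1424737_at, 2.42) and Cidea (2.33) ranked 13 and 18. F10-3 was the highest of the 20 kidneys in 9 of the 14 probe sets and M30-4 the lowest in 4.

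**Figure D2:**
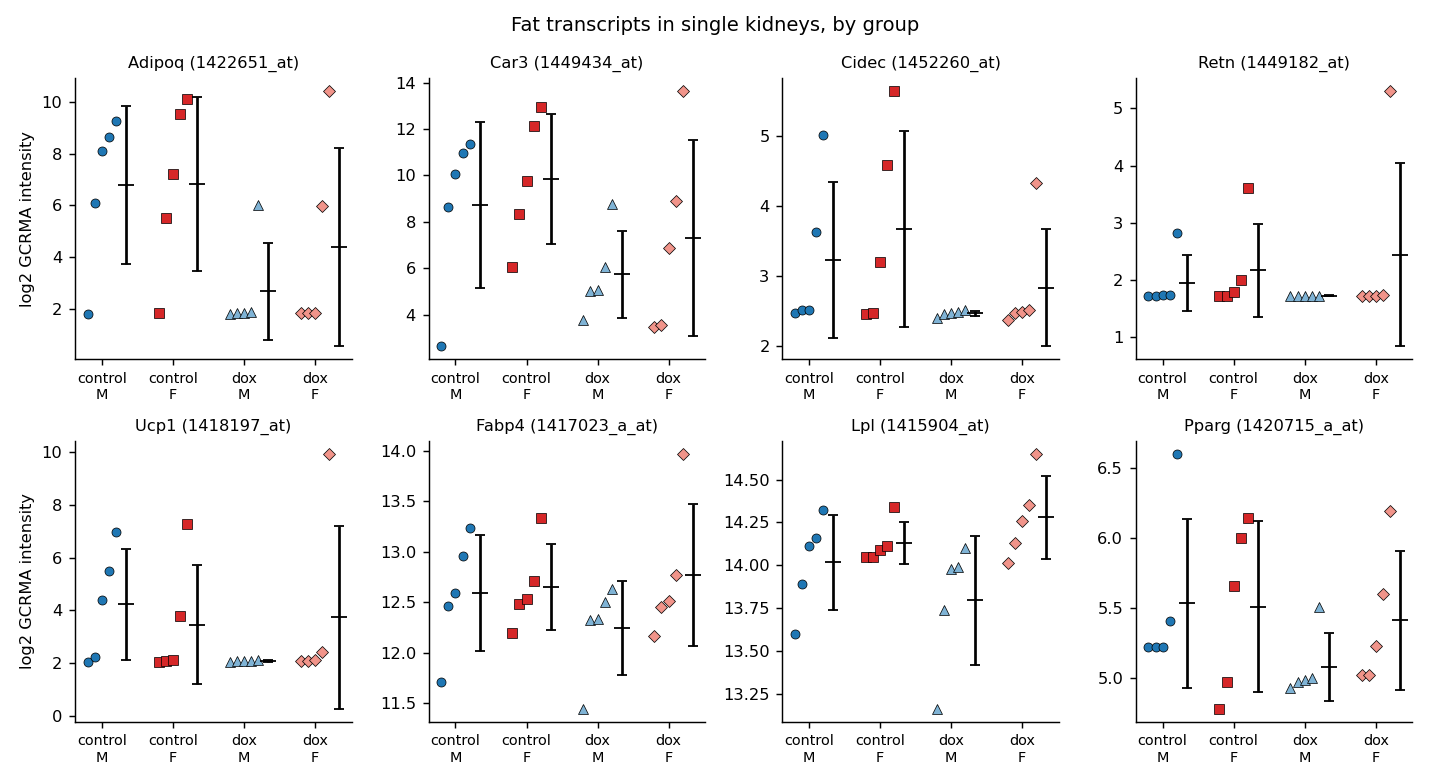
Log2 GCRMA intensity (vertical axes, each with its own range) of the brightest probe set of 8 genes in control males (circles), control females (squares), doxorubicin (dox) males (triangles) and doxorubicin females (diamonds), 1 point per kidney, with the mean and SD of the 5 kidneys as bars beside them. Adipoq has 4, 4, 1 and 2 kidneys above the floor from left to right, while Lpl lies at 13.16 to 14.65 throughout.

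The groups were compared to ask whether fat transcripts differ between the sexes or after doxorubicin. Group means were compared with limma in 1 model over the 20 arrays. No member probe set passed the threshold in any comparison. For doxorubicin in males (adjusted p under 0.03, passed by 0.053% of all probe sets), 0 of 14 were called and 1 had an unadjusted p under 0.05, as had 7.53% of all probe sets. This was Adipoq, with a mean of 6.79 ± 3.03 (SD, n = 5) in control and 2.69 ± 1.86 in doxorubicin males, a difference of -4.10 with an interval of -8.14 to -0.06 (limma adjusted p = 0.658). Car3 differed by -2.998 (SE 2.00) and Ucp1 by -2.15 (SE 1.44), from 4.22 ± 2.12 to 2.08 ± 0.03, both with an adjusted p of 0.723. The single doxorubicin male with Adipoq, M9, had Ucp1 at 2.03. Over the 14 probe sets the median difference was -0.40, against -0.01 over all probe sets, and 13 of the 14 were lower, as were 61.6% of all probe sets.

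In females (adjusted p under 0.04, passed by 0.0398%), 0 of 14 were called and none had an unadjusted p under 0.05. Adipoq was 6.84 ± 3.35 in control and 4.39 ± 3.81 in doxorubicin females, a difference of -2.46 (interval -6.50 to 1.59). This value rested on single kidneys: it was -3.96 without F10-3 and -1.64 without FNo5. Car3 differed by -2.56 (SE 2.00) and Ucp1 by 0.28 (SE 1.44); the Ucp1 mean of 3.73 ± 3.47 in doxorubicin females was that of 1 kidney at 9.93 and 4 at 2.08 to 2.43, and without FNo5 and M30-4 the Ucp1 difference was -0.065. The median over the 14 was 0.04, against 0.00 over all probe sets. The 2 responses were not shown to differ (threshold 0.05, passed by 0.00442%): 0 of 14 were called, and the difference of the responses was 1.64 for Adipoq (interval -4.07 to 7.36).

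Averaged over the sexes, a comparison added after the values were seen (threshold 0.05, passed by 0.0265%), 0 of 14 were called. Adipoq differed by -3.28 (interval -6.13 to -0.42, unadjusted p = 0.0271 and adjusted p = 0.739 by limma), Car3 by -2.78 and Cidec by -0.80. Without FNo5 and M30-4 the averaged Adipoq difference was -2.77, and with the prefix as a block -3.55, at an adjusted p of 0.824 and 0.347. Within animals without a prefix, Adipoq differed by -5.15 in males (3 doxorubicin against 2 control) and -4.58 in females (3 against 2). The 2 control females were F1 at 5.51 and FNo5 at 10.10, so the female value rests in part on FNo5. It differed by -3.85 in males with prefix 30 (2 against 3) and by 0.43 in females with prefix 10 (2 against 2).

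**Figure D3:**
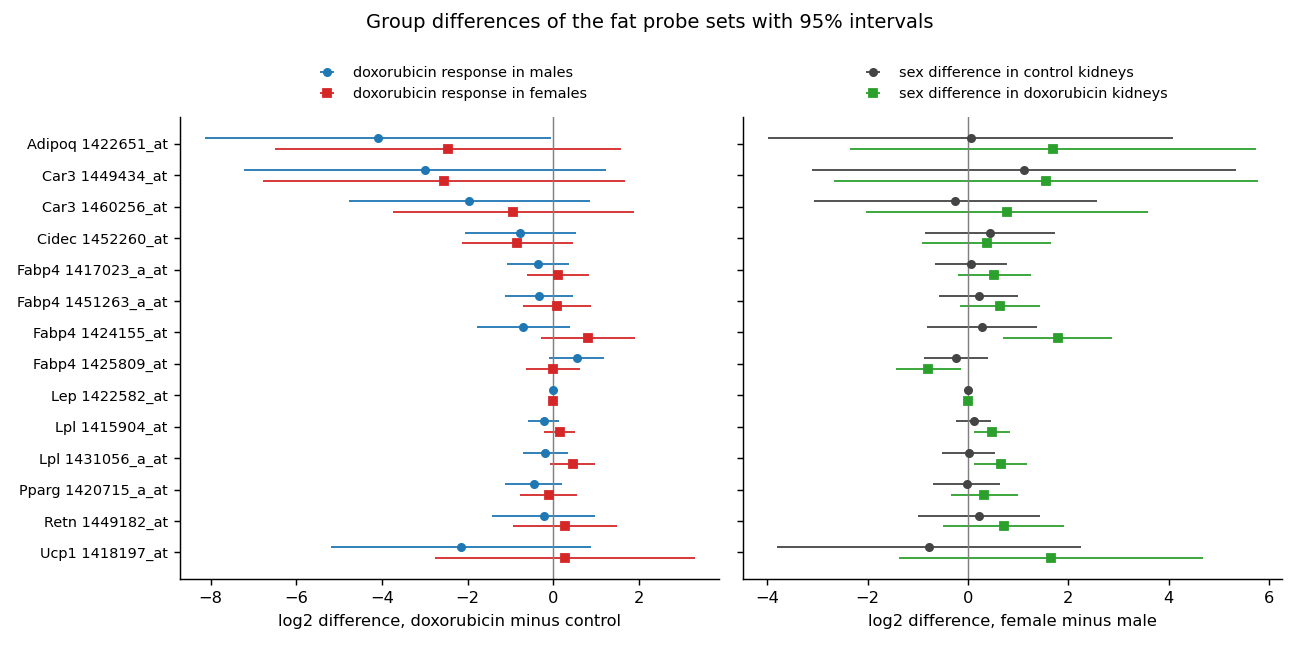
Differences of the 14 probe sets (rows) on the log2 scale with their 95% intervals from limma, as doxorubicin minus control in each sex (left) and female minus male in control and in doxorubicin kidneys (right). The intervals of Adipoq, Car3 and Ucp1 are the widest, and Adipoq in males, -8.14 to -0.06, and 4 probe sets of Fabp4 and Lpl in doxorubicin kidneys lie on 1 side of 0.

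Between the sexes, female minus male, 0 of 14 were called in control kidneys (adjusted p under 0.003, passed by 2.42%), and none had an unadjusted p under 0.05. Adipoq differed by 0.05 (SE 1.91) and Car3 by 1.11 (SE 2.00). Neither value was stable: without FNo5 and M30-4 they were -0.76 and 0.34, and with the prefix as a block -0.596 and 0.035. The Fabp4 1424155_at difference of 0.28 became -0.21 with the block, and the Cidec difference of 0.44 became -0.051 without the 2 arrays. In doxorubicin kidneys (same threshold, passed by 1.61%) 0 of 14 were called and 4 had an unadjusted p under 0.05, as had 22.2% of all probe sets. These 4 were Fabp4 1424155_at and 1425809_at and both Lpl probe sets. The median over the 14 was 0.64, against 0.01 over all. Fabp4 1424155_at was 6.41, 7.60, 7.15, 8.55 and 6.93 in F3, F4, F5, F10-3 and F10-4 and 6.00, 3.87, 5.42, 6.65 and 5.76 in M30-3, M30-4, M7, M9 and M11. The sexes overlapped between 6.41 and 6.65, and the means differed by 1.79 (SE 0.52, limma adjusted p = 0.0455). The difference was 1.37 without FNo5 and M30-4 (adjusted p = 0.0481), 1.30 with the prefix as a block (adjusted p = 0.166) and 1.11 within the animals without a prefix. The brightest Fabp4 probe sets differed by 0.53 and 0.64 (SE 0.34 and 0.38), or by 0.295 and 0.341 with the prefix as a block, while 1425809_at differed the other way, by -0.785 (SE 0.30). Lpl was higher by 0.49 (SE 0.17, adjusted p = 0.0917) and 0.65 (SE 0.25) in females, outside the threshold both times. M30-4, the lowest kidney in 1415904_at, moved this value: without it the first was 0.33. The methods' t-test at an unadjusted p under 0.01 called 0 members in each of these 4 comparisons.

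Whether the members go with Adipoq from kidney to kidney was measured in the 11 kidneys above the Adipoq floor only, since a value over all 20 would mostly reflect the 2 sets. 8 relations were computed, with 100000 permutations and two-sided p-values, adjusted over these 8. The genes were chosen as fat transcripts with earlier results of these data known, and the p-values are not independent evidence. Car3 went with Adipoq most closely (Pearson r = 0.98, permutation p = 1e-05, the smallest that these permutations can give, adjusted p = 8e-05; Spearman rho = 0.96, p = 5e-05). Cidec had r = 0.88 (permutation p = 0.00073, adjusted p = 0.00292) and rho = 0.90 (p = 0.00039). Cidec was above the array background in 6 of the 11 kidneys, and its values and ranks in the others are floor values. Retn had r = 0.68 (permutation p = 0.0044, adjusted p = 0.0117) and rho = 0.88 (p = 0.0006), but it was above the array background in only 3 of the 11 kidneys, so most of the values and ranks behind these 2 coefficients are floor values. Fabp4 had r = 0.65 (permutation p = 0.0247, adjusted p = 0.0493) and rho = 0.48 (p = 0.136).

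Without F10-3 and F1, the 2 of these kidneys farthest from the median of Adipoq, r was 0.98 for Car3, 0.90 for Cidec, 0.60 for Retn and 0.46 for Fabp4. By an exact permutation test over these 9, the adjusted p was 0.000132 and 0.00732 for the first 2 but 0.168 for Retn and 0.293 for Fabp4. For Retn r moved little, from 0.68 to 0.60, and rho was 0.80 (exact permutation, adjusted p = 0.0369). Most ranks behind this rho are of floor values, so it cannot show that the relation holds. The rho for Fabp4 was 0.25 (exact permutation, adjusted p = 0.521). Pparg had r = 0.65 (permutation p = 0.0343, adjusted p = 0.0549) and rho = 0.55 (p = 0.0816). Ucp1 had r = 0.61 (permutation p = 0.0443, adjusted p = 0.0591) and rho = 0.60 (p = 0.0549), and r was 0.38 without F10-3 and F1. Lpl had r = 0.16 (permutation p = 0.652) and rho = 0.12 (p = 0.732), and Lep, at its floor, r = 0.49 (permutation p = 0.121) and rho = 0.43 (p = 0.192). Genes of the other lists that were at or under background in all kidneys had r of -0.28 (Actn3) to 0.62 (Mylpf) with Adipoq in the same 11. Values of r near 0.6 were thus also reached by genes without signal. In the 6 female kidneys alone, Car3 had r = 0.99 (exact permutation p = 0.00278, adjusted p = 0.0222) and rho = 1.00 (exact p = 0.00278). No correlation was computed over the 5 males, since a minimum of 6 kidneys was set for one.

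**Figure D4:**
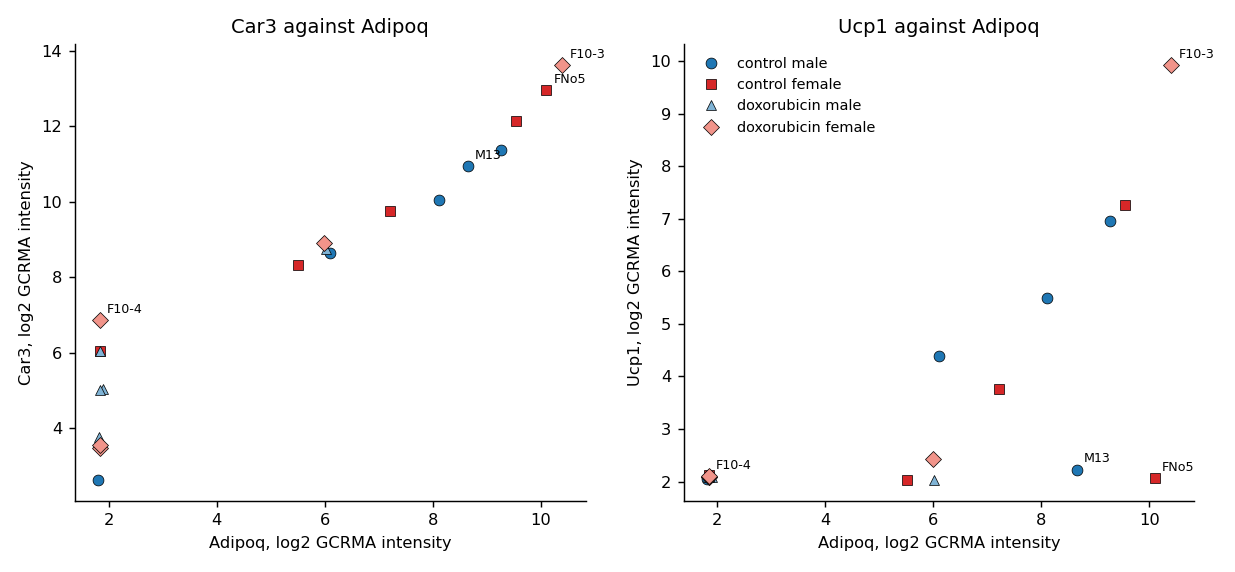
Car3 (left) and Ucp1 (right) against Adipoq, all as log2 GCRMA intensity, 1 point per kidney with the group given by shape and colour. Car3 rises with Adipoq among the 11 kidneys above 5.51 and spreads from 2.63 to 6.87 at the Adipoq floor, while FNo5 and M13 combine high Adipoq with Ucp1 at 2.06 and 2.23.

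Other genes with a pattern like that of Adipoq were ranked by Pearson r on deviations from the group means over the 20 kidneys, as a description. The kidneys fall into 2 sets, so r within the 11 is given as well. Of the 10 genes with the highest r, Cidea (r = 0.88, 0.86 within the 11), Thrsp, a regulator of fat synthesis (0.86 and 0.70), and Plin4, a lipid droplet coat protein (0.67 and 0.71), belong to the fat lists. Thrsp was 8.84 in F10-3, 8.56 in M30-1 and 7.88 in FNo5 and 3.62 to 5.62 in the kidneys at the Adipoq floor. Tnfaip2 (0.77 and 0.50), Il6st, a cytokine receptor subunit (0.74 and 0.50), Marcks, a membrane protein that binds actin (0.74 and 0.76), Nfkbia, an inhibitor of NF-kB (0.72 and 0.24), Srrd (0.70 and 0.43), Nelfb, a subunit of an elongation factor (0.68 and 0.31), and Lcp1, an actin bundling protein of leukocytes (0.68 and 0.57), were the others. Of these, Marcks had the widest range over the 20 kidneys (5.03 to 8.68), wider than that of Plin4 (5.17 to 8.37). Tnfaip2 was 6.12 to 8.19, while Il6st (9.58 to 10.40) and Nelfb (9.54 to 10.18) moved by less than 1 unit. Among the members r was 0.96 for Car3, 0.81 for Fabp4 and 0.64 for Pparg, but 0.25 for Lpl. The closest of all was a probe set without a gene name in the annotation used here, 1417867_at (0.98 and 0.91), singled out after its values were seen. It was 12.36 in F10-3, 12.25 in FNo5 and 11.64 in F10-1, and 3.42 to 5.41 in the 9 kidneys at the Adipoq floor.

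Most genes of the other fat lists were expressed in every kidney. Of 8 lipid droplet and lipolysis genes, all were above background in every kidney and 0 were called in any comparison, with a median difference of -0.13 for doxorubicin in males and 0.09 in females. Of 16 fat synthesis genes, none was called for doxorubicin in either sex (median -0.11 in males and -0.04 in females), but the sexes differed. In control females 3 were higher and 2 lower, where 2.42% of all probe sets were called. In doxorubicin females 2 were higher and 1 lower, where 1.61% of all were called. Elovl6, which elongates fatty acids, was higher by 2.04 in control and 1.97 in doxorubicin females (limma adjusted p = 3.07e-08 and 6.01e-08), and Scd1, a desaturase, by 2.86 and 4.14 (adjusted p = 0.00212 and 9.85e-05). Cd36, a fatty acid transporter, was lower by 2.73 and 1.49 (log2 differences -2.73 and -1.49, limma adjusted p = 1.73e-06 and 0.0013), and Me1 was lower in control females (-1.28, adjusted p = 0.00029). On the deviations from the group means, r of these 4 with Adipoq was -0.07 to 0.32. Of 8 adipocyte transcription factors and 8 other secreted adipocyte proteins, 0 were called. Cox8b, a cytochrome oxidase subunit of brown fat and muscle, was the only brown adipocyte gene called, higher by 5.22 in doxorubicin females (adjusted p = 0.000132). It was 8.89 to 10.77 in those 5 females and 3.56 to 5.14 in the 5 males, also in kidneys at the Adipoq floor. In control kidneys it differed by 3.13 (adjusted p = 0.00753), outside the threshold, and among control males it was 9.15 in M30-1 and 4.29 in M30-5.

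Marker lists of other tissues were read beside the fat transcripts. Of 9 adrenal genes measured, 7 were at or under background in all kidneys, Star was at most 3.41, and Pnmt was 6.45 to 6.71 throughout. The summed level of 9 kidney epithelium genes, the log2 of their added linear intensities, was 17.29 to 17.56 over the 20 kidneys. Such a sum follows its brightest genes, here Kap (mean 15.96) and Umod (15.03), and cannot show how the dimmer ones moved. Formed in the same way, the summed level of 9 macrophage genes was 11.06 to 11.98 in control males and 12.05 to 12.41 in control females. In doxorubicin males it was 11.25 to 12.93, and in doxorubicin females 12.15 to 13.19. Csf1r, the brightest of the 9, weighs most in this sum. It differed by 0.76, female minus male, in control kidneys (limma adjusted p = 0.123). Over the 9 genes the median of this difference was 0.17, and 0 were called (adjusted p under 0.003, passed by 2.42% of all probe sets). The sum was highest in F10-3, the kidney with the most Adipoq, and next highest in M30-4, which was at the Adipoq floor. The 3′ minus 5′ signal of Gapdh, a measure of RNA degradation, was -0.10 to 1.64 in the 11 kidneys with Adipoq and 0.10 to 0.80 in the other 9. The part of macrophages and of RNA quality in the fat signal was not tested.

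With the Adipoq level as a covariate, the difference of Car3 for doxorubicin went from -2.998 to 1.10 in males and from -2.56 to -0.10 in females, and 0 of the other members were called. Over all probe sets the same covariate changed the counts from 548 to 506 for sex in control kidneys, from 365 to 342 for sex in doxorubicin kidneys, from 12 to 8 for doxorubicin in males and from 9 to 1 for doxorubicin in females. The count for the difference of the responses rose from 1 to 3. Leaving out 1 array alone gave 2 to 21 for doxorubicin in males and 1 to 32 in females. Adipoq was above its floor in 8 control and 3 doxorubicin kidneys, so this covariate and the treatment cannot be fully told apart.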

How the data were processed

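Kidney RNA of 20 Balb/c mice was measured, 1 array per animal. The authors extracted RNA with Trizol, labelled it by the One-Cycle protocol and deposited GCRMA intensity values on a linear scale (background adjusted, normalized between arrays, 1 value per probe set), from Array Assist; no version is given in the sources used here. Of 22690 rows, 64 array controls were set aside. Genes were named through the platform annotation and RefSeq: 20380 probe sets stand for 1 gene, 691 for several, and 1555 are unnamed here.

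Intensities were converted to log2 without a pseudocount or filter. A linear model of the 4 groups was fitted with limma (version 3.58.1, R 4.3.3), with 16 degrees of freedom from the residuals and 0.78 from the prior, and p-values were adjusted by Benjamini-Hochberg over 22626 probe sets. The thresholds of 0.003, 0.03 and 0.04 take over false discovery rates that the study used with another test (SAM). The threshold of 0.05 for the difference of the responses and for the averaged comparison was set here. Correlations, exact and sampled permutation tests were run with scipy 1.17.1 and numpy 2.4.6. The code was tested on simulated data. The limma p-values set a difference of means against the spread between animals within groups, shared over the 4 groups. The permutation p-values of the correlations shuffle kidneys across groups.

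Genes, lists and tests were chosen with earlier results of these data known. Named are every member probe set, the 2 to 4 genes of each other list with the smallest p in the comparison described, and the 10 genes most like Adipoq on deviations from the group means (mean log2 intensity of at least 4); further genes in the text were named after their values were seen. Alternatives were an adjusted p under 0.05, the methods' t-test, a fit of the compared groups only, a trended robust prior, median centring, weights for arrays, quantile normalization, only the upper 60% of probe sets by mean, log2 of intensity plus 16, the animal number prefix as a block, Gapdh or Adipoq as a covariate, and leaving out arrays. The averaged doxorubicin comparison and the restriction of correlations to 11 kidneys were added after the data were seen. The number of arrays limits the precision.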

Additional observations from a re-analysis of the deposited data

Results flagged for a closer look

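In 47 sets of 5 kidneys (a member probe set in a group with at least 1 value above background), 15 had a kidney whose gap to the nearest other was over 0.71 of the range of its group. The share of about 5% that chance gives for this cut-off does not apply to these sets. A set of floor values could enter through the same high kidney that was then flagged. The probe sets of a gene, and genes that go together, repeat the same kidney.

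F10-3 was the highest doxorubicin female in 5 of these: Car3 1460256_at at 8.97 (next kidney 3.34), Cidec at 4.33 (2.51), Fabp4 1451263_a_at at 13.79 (12.39), Retn at 5.30 (1.74) and Ucp1 at 9.93 (2.43). M9 was the highest doxorubicin male for Adipoq, at 6.02 (1.90), and for Car3 1460256_at, at 5.10 (3.34). M30-1 was the highest control male for Pparg, at 6.60 (5.41), and Retn, at 2.83 (1.74), and F10-1 the highest control female for Retn, at 3.61 (2.01).

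M30-4 was the lowest doxorubicin male for Fabp4 1417023_a_at, at 11.44 (next 12.32), and 1451263_a_at, at 11.01 (11.86). M13 was the highest control male for Fabp4 1425809_at, at 3.17 (1.99). F30-6 was the highest control female for Lpl 1415904_at, at 14.34 (14.11), and M30-3 the highest doxorubicin male for Pparg, at 5.51 (5.00).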

How the results depend on the processing

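The count of member probe sets called was 0 under all alternatives (the upper 60% of probe sets holds only some of the members) and in all 20 fits without a single array (0 to 0 in each comparison), except that at an adjusted p under 0.05 it was 1 for the sex difference in doxorubicin kidneys (Fabp4 1424155_at). Over all probe sets the counts moved widely: 174 to 1923 for sex in control kidneys and 93 to 2198 for sex in doxorubicin kidneys, the lowest by the methods' t-test after adjustment and the highest by it at an unadjusted p under 0.01, 0 to 286 and 0 to 346 for doxorubicin in males and females by the same tests, and 0 to 213 for the difference of the responses. Array weights gave 1454, 1331, 113, 138 and 213, and the prefix block 543, 651, 20, 231 and 67, for the 5 comparisons in this order, and 0 members passed in each. The Adipoq difference was -5.34 to -2.68 in males and -3.96 to -1.54 in females over the alternatives, the smallest with log2 of intensity plus 16. Without F10-3 and F1 the relation of Fabp4 with Adipoq lost its call (r from 0.65 to 0.46), and that of Retn lost it by r (0.68 to 0.60). The rho of Retn was 0.80 (exact permutation, adjusted p = 0.0369), but most of its ranks are of floor values. The cause was not tested. No paired analysis was possible because, as written, the groups share no animal numbers. The labels do not say whether No5 (FNo5, control) and 5 (F5, doxorubicin) stand for the same number. Values near the array background of 2.75 are not measured with precision, which limits Cidec, Retn, Lep and Ucp1 in most kidneys.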

Other observations

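F30-6, a control female with Adipoq at 7.21, was the only kidney with transcripts of the exocrine pancreas. Ctrb1 was 8.42, Cpb1 7.74, Cpa1 6.85 and Cel 5.88 in F30-6, and no other kidney was above the array background of 2.75 in any of these 4 genes. Cela1, also on this list, was 10.67 to 12.19 in all kidneys. Ins2, from the endocrine pancreas, was at most 1.73.

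2 secreted proteins of fat and liver, singled out after their values were seen, were present in few kidneys. Rbp4, the retinol carrier, was 5.09 in F10-3, 4.64 in F10-1, 4.32 in M30-1, 4.23 in FNo5, 3.48 in F1 and 3.01 in F30-6, kidneys with Adipoq signal, and at or under background in the other 14. Hp, which binds free hemoglobin, was 5.91 in F10-3 and 2.83 in M30-1, and at or under background in the other 18. Agt, the source of angiotensin, was 6.06 in M7, 4.84 in M11, 4.38 in M9, 4.15 in M13 and 3.61 in M12, the 5 males without a number prefix, 3.34 in M30-4, and within 0.2 of its lowest value, 2.80, in the other 14 kidneys. 4 of these 5 males were the kidneys with Fabp4 1425809_at above its floor.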
